A study of Mus musculus with 6 samples.

Results

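The myeloid growth factors and their receptors are the 8 genes Csf1, Il34, Csf2, Csf3, Csf1r, Csf2ra, Csf2rb and Csf3r. They were taken by name, through the Ensembl IDs of the mouse annotation (GRCm38), from 54532 gene IDs measured in each of 6 mammary tumors. All 8 were above 0 in at least 1 tumor, and 7 of them were among the 15069 genes abundant enough to test. Csf2 was not. Il34 was the member that differed between treatments at an unadjusted p under 0.05, with a mean of 3.18 FPKM in IgG-treated and 11.6 FPKM in anti-PD-1-treated tumors. No member, and 0 genes of the 15069, passed a limma adjusted p of 0.05. At an unadjusted p under 0.05 there were 1848 genes, and limma's voom on recovered reads called 1 gene, Fetub, at the adjusted threshold.

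Colony-stimulating factors are secreted proteins that govern the survival, proliferation and maturation of myeloid cells. CSF-1 and IL-34 are unrelated in sequence yet bind the same receptor tyrosine kinase, the product of Csf1r, on which most tissue macrophages depend. GM-CSF (Csf2) signals through its own alpha chain (Csf2ra) and a beta chain (Csf2rb) shared with the IL-3 and IL-5 receptors, and G-CSF (Csf3) signals through a single-chain receptor (Csf3r) carried mainly by neutrophils and their precursors. In mammary tumors, CSF-1 made by epithelial and stromal cells is known for its part in macrophage recruitment.

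The tumors came from NeuT/ATTAC mice, 3 of them treated with IgG and 3 with an anti-PD-1 monoclonal antibody, as the samples are labelled, with 1 library per sample. These mice join the MMTV-NeuT transgene, in which the MMTV promoter drives Erbb2 in mammary epithelium, with the FAT-ATTAC transgene, brought from C57BL/6 into the FVB strain, through which AP20187 removes adipose cells and leaves the mammary gland fibrotic. In both groups AP20187 (0.4 mg/kg) began at 6 weeks of age and the antibody (100 μg a dose) at 8 weeks, so no tumor was without AP20187 or without an antibody. The study's methods give the length of the antibody course but not the age at which these tumors were collected. The study also describes tumor RNA as pooled within each group for sequencing, so whether each sample, called a tumor here, is 1 whole tumor is not known. The labels do not say that each tumor came from a different animal, so SDs and p-values measure the spread between these samples, which may be technical.

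Values are FPKM, that is, fragments scaled by exon length and library size, divided by a factor between 1.00 and 1.01 that brought the tumors to a common scale. Between 21320856 and 24172627 reads per tumor could be recovered from the FPKM, and 3 reads on the shortest member, Csf2, corresponded to between 0.146 and 0.169 FPKM. Erbb2, the transgene's gene, ranged from 20.2 to 23.0 FPKM in IgG-treated and from 25.0 to 31.3 FPKM in anti-PD-1-treated tumors. These values were read at the mouse gene of the reference, and how much of them is transgene RNA is not known. Epcam, a defining epithelial marker, lay between 683 and 878 FPKM in IgG-treated and between 986 and 1142 FPKM in anti-PD-1-treated tumors. Of 12 epithelial markers, however, 6 had a higher and 6 a lower mean log2 level after anti-PD-1. Pdcd1, the gene of the antibody's target, lay between 0.0700 and 0.998 FPKM. Summed skeletal muscle markers ranged from 0.623 to 154 FPKM and were high in IgG replicate 2 and anti-PD-1 replicates 1 and 2, so muscle RNA differed between tumors of both groups.

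Over the 6 tumors the receptor genes Csf2ra (mean 18.6 FPKM) and Csf1r (13.6 FPKM) stood highest, followed by the ligand genes Csf1 (9.85 FPKM) and Il34 (7.40 FPKM). Csf2rb (2.11 FPKM), Csf3r (1.51 FPKM), Csf3 (1.01 FPKM) and Csf2 (0.125 FPKM) came after them. FPKM is scaled by exon length, so these levels can be set beside each other. For Csf2ra and Csf1r, FPKM times merged exon length did not give whole reads, so the exon length behind their FPKM could not be checked. The ranges of neighbours in this order overlapped in every case, and the order of Csf1 and Il34 turned with treatment. Csf2ra exceeded Csf1r in 6 of 6 tumors, whereas Csf1r exceeded Csf1 in 6 of 6 and Csf1 exceeded Il34 in 3 of 6, the 3 IgG-treated tumors.

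**Figure D1:**
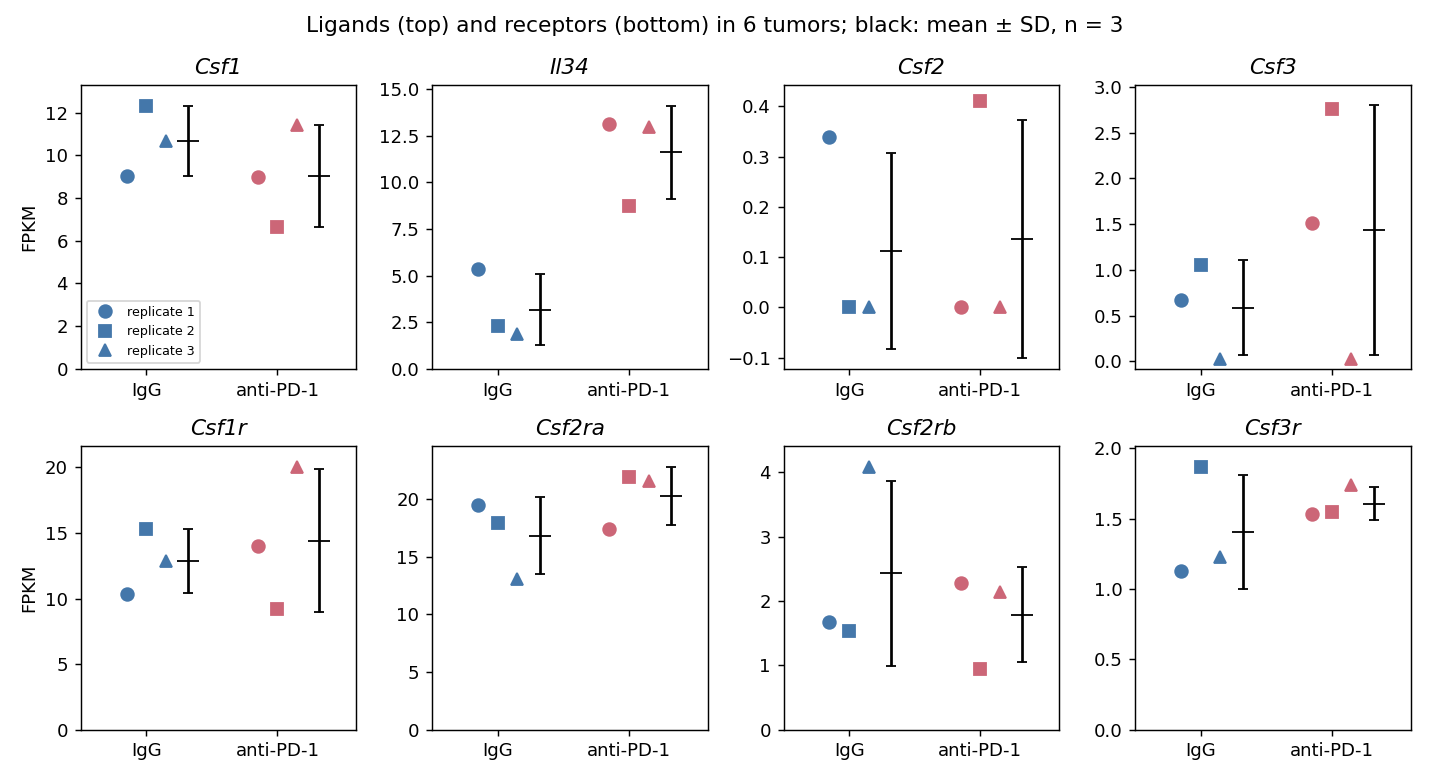
FPKM (y axis, linear, starting at 0 or just below it) of each of the 8 genes in each tumor, 1 panel per gene, with IgG- and anti-PD-1-treated tumors side by side, points for tumors and black bars for mean ± SD (n = 3). Il34 is the gene whose groups do not overlap, and Csf3 and Csf2 are close to 0 in some tumors of both groups.

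Among the ligand genes, the largest difference between treatments was in Il34, which encodes interleukin-34, the second ligand of the CSF-1 receptor. Il34 (ENSMUSG00000031750; GRCm38 chromosome 8, 110741829 to 110805924, minus strand, with 1959 bases of merged exons) was at 5.36, 2.32 and 1.86 FPKM in IgG replicates 1 to 3 and at 13.1, 8.74 and 13.0 FPKM in the anti-PD-1 replicates, given in the same order here and throughout. Every anti-PD-1-treated tumor was above every IgG-treated tumor. The means were 3.18 ± 1.90 and 11.6 ± 2.49 FPKM (SD, n = 3 each), a ratio of 3.65. On the log2(FPKM + 1) scale the difference was 1.66 (SE 0.32, 95% interval 0.90 to 2.43), with an unadjusted limma p of 0.00123 and a Benjamini-Hochberg adjusted p of 0.344. The two-sided exact permutation p was 0.1, the smallest that 3 against 3 tumors allow. In bulk tumor RNA, more cells that make a transcript and more of the transcript per cell cannot be told apart.

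The Il34 values rested on 233, 110 and 90 recovered reads in IgG-treated and on 659, 418 and 608 in anti-PD-1-treated tumors. By unadjusted p, Il34 ranked 43 among the 15069 genes tested, and 62 genes had a larger positive log2 difference. It was 1 of 7 tested members with an unadjusted p under 0.05, where 12.3% of all tested genes had one, and 1 of 7 whose groups did not overlap, where 18.1% of all tested genes did not (9.3% higher and 8.75% lower after anti-PD-1). A log2 difference of at least 1.5 in either direction was found for 1 of 7 members and for 1.1% of all tested genes. The median log2 difference of the 7 members was 0.13 and that of all tested genes 0.01. The other 6 tested members had unadjusted p-values of 0.209 or more.

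Leaving out each tumor in turn kept Il34 higher after anti-PD-1, with log2 differences from 1.44 to 2.01. Over all 13 alternatives the unadjusted p ran from 0.000107 to 0.00596 and the adjusted p from 0.0598 to 0.766. An antisense gene, Gm15895 (110805638 to 110807477), overlaps the 5′ end of Il34 and was at 0.0616, 0.113 and 0 FPKM in IgG-treated and at 0.267, 0.168 and 0.859 FPKM in anti-PD-1-treated tumors. Gm15894, which also overlaps Il34, was at 0 in 4 tumors and reached 0.119 FPKM. Whether reads were assigned by strand is not given in the sources used here. Gm15895 rested on 1, 2 and 0 reads after IgG and on 5, 3 and 15 reads after anti-PD-1, and it was too low to test. No direction is read from so few reads, and its part in the Il34 values was not tested.

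Csf1, the gene of macrophage colony-stimulating factor, overlapped between treatments and showed no difference beyond the spread between tumors. Csf1 (ENSMUSG00000014599; chromosome 3, 107741048 to 107760469, minus strand) was at 9.03, 12.3 and 10.7 FPKM in IgG-treated and at 9.0, 6.65 and 11.4 FPKM in anti-PD-1-treated tumors. The groups overlapped, with the lowest value in anti-PD-1 replicate 2 and the highest in IgG replicate 2. The means were 10.7 ± 1.64 and 9.03 ± 2.4 FPKM (SD, n = 3 each). The log2 difference was -0.24 (SE 0.22, 95% interval -0.75 to 0.28), with a limma adjusted p of 0.679. Behind each value were 857 to 1572 reads.

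Set side by side, the ligands of the CSF-1 receptor stood in opposite order in the treatments. Il34 made up 37.3%, 15.9% and 14.9% of the summed Il34 and Csf1 FPKM in IgG-treated tumors and 59.3%, 56.8% and 53.2% in anti-PD-1-treated tumors. The sum itself was 14.4, 14.6 and 12.5 FPKM after IgG and 22.1, 15.4 and 24.4 FPKM after anti-PD-1, again without overlap. In anti-PD-1 replicate 2, where Csf1 was lowest, the sum was close to the 14.6 FPKM of the highest IgG-treated tumor. These sums and shares were chosen after the values had been seen and are a description.

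**Figure D2:**
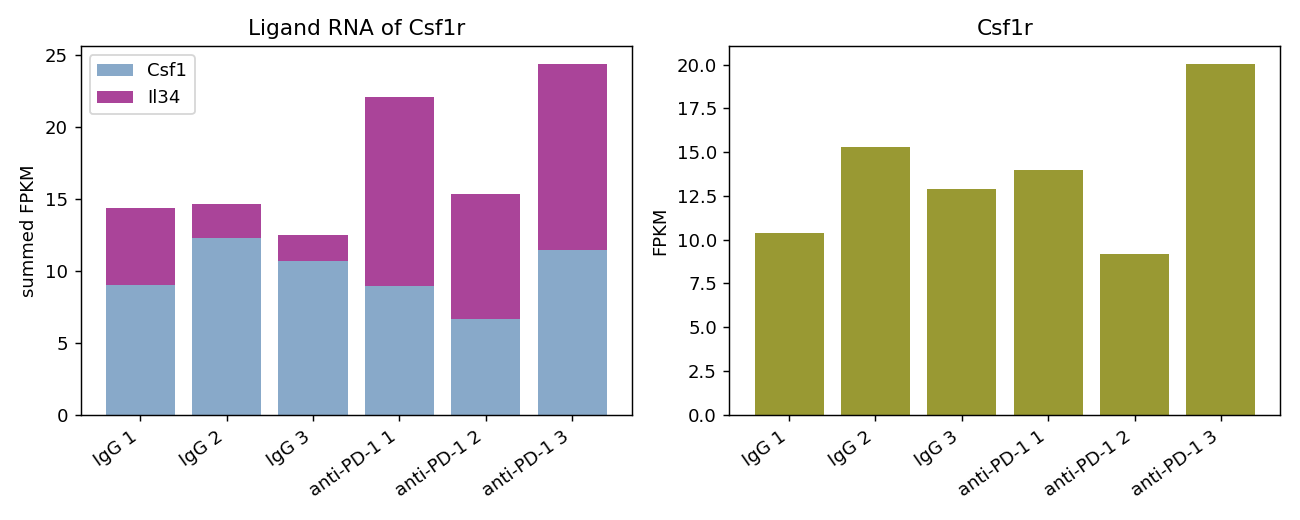
Left, stacked bars of Csf1 and Il34 FPKM in each tumor, and right, bars of Csf1r FPKM in the same tumors (linear axes from 0). Il34 holds 14.9% to 37.3% of the sum in IgG-treated and 53.2% to 59.3% in anti-PD-1-treated tumors, and Csf1r is both lowest and highest in tumors of the anti-PD-1 group.

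Csf3, the gene of G-CSF, was low and uneven in both groups. Csf3 (ENSMUSG00000038067; chromosome 11, 98701263 to 98703629, plus strand) was at 0.670, 1.05 and 0.0287 FPKM in IgG-treated and at 1.52, 2.75 and 0.0296 FPKM in anti-PD-1-treated tumors. The groups overlapped, and IgG replicate 3 and anti-PD-1 replicate 3 each held a single read. The means were 0.584 ± 0.518 and 1.43 ± 1.36 FPKM (SD, n = 3 each). The highest tumor was 95.9 times the lowest, the widest range of any tested member, but the lowest rested on a single read, so the ratio is not exact. The log2 difference was 0.49 (SE 0.50, 95% interval -0.69 to 1.66), with a limma adjusted p of 0.715. Without anti-PD-1 replicate 3 it was 1.02 with an unadjusted p of 0.033, and without the other tumors it was between 0.08 and 0.70.

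Csf2, the gene of GM-CSF, was at the limit of what the depth could show. Csf2 (ENSMUSG00000018916; chromosome 11, 54247271 to 54249667, minus strand) held 6 reads in IgG replicate 1 (0.338 FPKM), 8 reads in anti-PD-1 replicate 2 (0.410 FPKM) and none in the other 4 tumors. A count of 0 allows up to 3 reads, and both nonzero tumors were above that limit. No difference between treatments was detectable at this depth.

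Csf1r, the receptor gene for CSF-1 and IL-34 and a marker of macrophages and monocytes, varied more among anti-PD-1-treated tumors than between treatments. Csf1r (ENSMUSG00000024621; chromosome 18, 61100598 to 61132149, plus strand) was at 10.4, 15.3 and 12.9 FPKM in IgG-treated and at 14.0, 9.17 and 20.1 FPKM in anti-PD-1-treated tumors. Both the lowest and the highest tumor had received anti-PD-1, and the means were 12.9 ± 2.45 and 14.4 ± 5.46 FPKM (SD, n = 3 each). The log2 difference was 0.11 (SE 0.28, 95% interval -0.56 to 0.77), with a limma adjusted p of 0.900. Its sign turned when IgG replicate 1 was left out (-0.03) and when anti-PD-1 replicate 3 was (-0.14). Hmgxb3, which overlaps Csf1r, was at 4.75 to 7.84 FPKM, and reads shared between the overlapping genes could not be separated.

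Beside the 16 macrophage markers, the level of Csf1r overlapped between treatments. The mean log2(FPKM + 1) of Csf1r minus that of the markers was -0.98, -0.75 and -0.39 in IgG-treated and -0.91, -0.93 and -0.58 in anti-PD-1-treated tumors. The difference between the groups was -0.10, with a two-sided exact permutation p of 0.7. It ran from -0.24 without IgG replicate 1, through -0.21 without anti-PD-1 replicate 3, to 0.06 without IgG replicate 3, so no direction is read from it. Csf1r per Adgre1, the gene of F4/80, was 1.48, 1.75 and 2.19 after IgG and 1.88, 1.75 and 2.16 after anti-PD-1, with overlap. Across the 6 tumors Csf1r and the mean of the macrophage markers had a Pearson r of 0.784 (permutation p 0.0708, adjusted over 15 relations 0.354 or more) and a Spearman rho of 0.771 (permutation p 0.103). Without the 2 tumors farthest from the median r was 0.965.

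**Figure D3:**
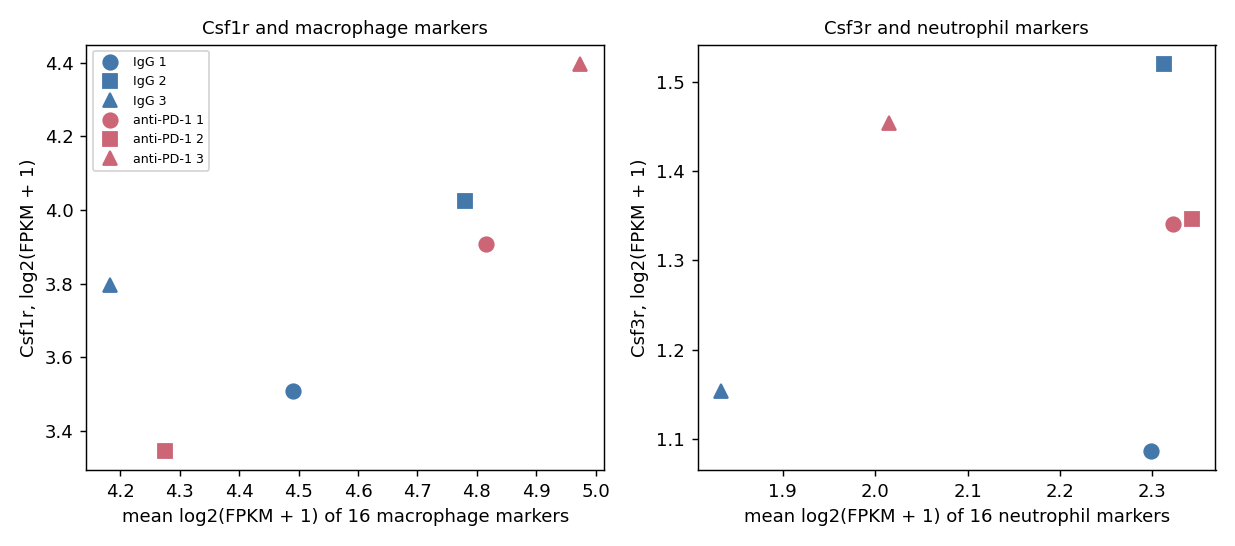
Log2(FPKM + 1) of Csf1r (left) and Csf3r (right) against the mean log2(FPKM + 1) of 16 macrophage and 16 neutrophil markers in each of the 6 tumors, with color for treatment and shape for replicate number. Over the 6 tumors r is 0.784 for Csf1r, with IgG replicate 3 lowest in macrophage markers but not in Csf1r, and 0.235 for Csf3r, and neither passed the adjustment.

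Csf2ra, the GM-CSF receptor alpha chain, had the highest FPKM of the members in all 6 tumors, though the exon length behind its FPKM could not be checked. Csf2ra (ENSMUSG00000059326; chromosome 19, 61223957 to 61228429, minus strand) was at 19.4, 18 and 13.1 FPKM in IgG-treated and at 17.4, 22 and 21.5 FPKM in anti-PD-1-treated tumors. The groups overlapped. IgG replicate 3 was the lowest tumor, and the means were 16.8 ± 3.33 and 20.3 ± 2.51 FPKM (SD, n = 3 each). The log2 difference was 0.27 (SE 0.19, 95% interval -0.19 to 0.72), with a limma adjusted p of 0.601.

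Csf2rb, the signaling chain that Csf2ra needs, was lower and more variable than Csf2ra. Csf2rb (ENSMUSG00000071713; chromosome 15, 78325752 to 78353847, plus strand) was at 1.67, 1.53 and 4.09 FPKM in IgG-treated and at 2.28, 0.940 and 2.14 FPKM in anti-PD-1-treated tumors. The groups overlapped. IgG replicate 3 stood above the other 5 tumors, and the means were 2.43 ± 1.44 and 1.79 ± 0.737 FPKM (SD, n = 3 each). The log2 difference was -0.26 (SE 0.34, 95% interval -1.06 to 0.54), with a limma adjusted p of 0.783, and it was 0.06 without IgG replicate 3. Csf2ra per Csf2rb was 11.6, 11.7 and 3.20 after IgG and 7.63, 23.4 and 10.1 after anti-PD-1, a ratio chosen after the values had been seen. Mir7676-2, which lies within Csf2rb, was at 0 in all tumors.

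In mice the beta chain gene has a close paralog, Csf2rb2, which encodes the beta chain particular to the IL-3 receptor. Of the 50-base windows of the transcript Csf2rb-206, 892 of 4851 (18.4%) occur in a coding transcript of Csf2rb2. Of the windows of Csf2rb2-201, 19.0% occur in a coding transcript of Csf2rb. A read that lies within such windows matches both genes. The longest run shared without a mismatch was 242 bases. It lies in the coding part of the last exon of both transcripts (exon 15 of 15 and exon 14 of 14), at chr15:78348562-78348833 on the plus strand for Csf2rb and at chr15:78284615-78284886 on the minus strand for Csf2rb2 with a short flank at each end (GRCm38, GENCODE release M21 transcripts). The stretch is shown to let the extent of the shared sequence be seen, 5′ to 3′, with the 4 bases that differ in capitals.
Csf2rb: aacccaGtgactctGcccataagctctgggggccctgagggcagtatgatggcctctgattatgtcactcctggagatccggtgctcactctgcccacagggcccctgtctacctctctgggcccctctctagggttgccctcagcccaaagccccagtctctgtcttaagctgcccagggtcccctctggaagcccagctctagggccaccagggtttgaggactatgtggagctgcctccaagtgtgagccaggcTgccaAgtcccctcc
Csf2rb2: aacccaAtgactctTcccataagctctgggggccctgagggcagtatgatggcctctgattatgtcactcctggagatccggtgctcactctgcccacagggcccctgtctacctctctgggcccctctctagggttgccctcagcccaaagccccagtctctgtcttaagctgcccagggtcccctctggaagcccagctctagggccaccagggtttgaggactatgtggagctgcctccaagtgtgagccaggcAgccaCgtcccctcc

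Csf2rb2 (ENSMUSG00000071714; chromosome 15, 78282507 to 78305721, minus strand) was at 0.941, 1.25 and 1.11 FPKM in IgG-treated and at 1.94, 0.726 and 1.25 FPKM in anti-PD-1-treated tumors. Its log2 difference was 0.10, with a limma adjusted p of 0.882. The study names RSEM for counting, and the recovered reads of both genes came out whole in every tumor. How reads that match both genes were assigned is not known from this, so the sum of both genes was taken as well. It was 2.61, 2.78 and 5.20 FPKM after IgG and 4.22, 1.67 and 3.39 FPKM after anti-PD-1, with overlap and a two-sided exact permutation p of 0.7.

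Csf3r, the G-CSF receptor gene, kept within a narrow range. Csf3r (ENSMUSG00000028859; chromosome 4, 126024550 to 126044440, plus strand) was at 1.12, 1.87 and 1.23 FPKM in IgG-treated and at 1.53, 1.54 and 1.74 FPKM in anti-PD-1-treated tumors. The anti-PD-1-treated tumors fell within the range of the IgG-treated tumors, with means of 1.61 ± 0.116 and 1.41 ± 0.404 FPKM (SD, n = 3 each). The log2 difference was 0.13 (SE 0.19, 95% interval -0.33 to 0.58), with a limma adjusted p of 0.818, on 90 to 163 reads per tumor. The 926 tested genes of chromosome 4 had a median log2 difference of -0.40, and 83.6% of them were lower after anti-PD-1, against 49.2% of all tested genes. The part of this shift in the value of Csf3r was not tested. The median of chromosome 8, which holds Il34, was -0.02.

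The 16 neutrophil markers were uneven in level, and 10 of them were too low to test. Of the 6 tested, 0 were higher and 1, G0s2, was lower at an unadjusted p under 0.05 (log2 difference -1.63), against 6.22% and 6.05% of all tested genes. The log2 difference was above 0 for 4 of the 6 and below 0 for 2, with a median of 0.50. Without single tumors, 0 to 1 were higher, the 1 being Lcn2 without IgG replicate 1, and G0s2 was lower each time. Ltf, the lactoferrin gene, was at 56.4, 946 and 19.6 FPKM after IgG and at 56.2, 115 and 14.2 FPKM after anti-PD-1, with overlap (log2 difference -1.16). S100a8 was at 7.99, 0.954 and 1.05 FPKM after IgG and at 4.04, 21.0 and 2.11 FPKM after anti-PD-1, and S100a9 ranged from 0.544 to 4.93 FPKM, both with overlap. Ly6g was at 0 in the IgG-treated tumors and at 0.0414, 0.304 and 0 FPKM in the anti-PD-1-treated tumors, and Mpo reached 0.0838 FPKM. The summed level of the list, 1271 to 3540 FPKM in IgG-treated and 2993 to 6670 FPKM in anti-PD-1-treated tumors, came mostly from Lcn2, a siderophore-binding protein that mammary epithelium also makes. Csf3r minus the mean log2 level of these markers differed by 0.05 between treatments, with a two-sided exact permutation p of 0.9. Its sign turned with 0.1 added to the FPKM (-0.11), without IgG replicate 1 (-0.11) and when anti-PD-1 replicate 3 was dropped (-0.09), so no direction is read from it. Csf2rb and the neutrophil markers had a Pearson r of -0.831 (permutation p 0.0347) and a Spearman rho of -0.657 (permutation p 0.175), and r was -0.556 without the 2 tumors farthest from the median. No relation of the 15 had an adjusted p under 0.354.

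**Figure D4:**
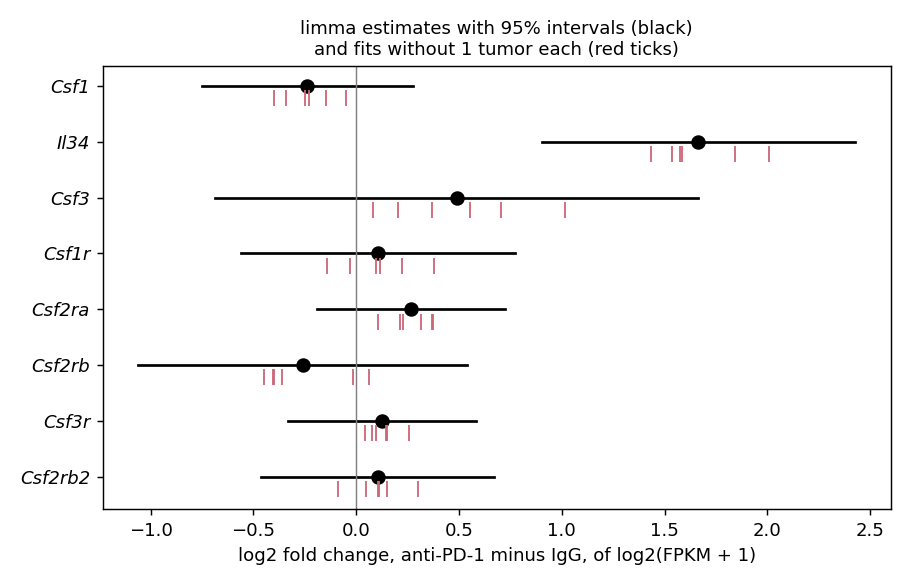
Log2 difference of FPKM + 1, anti-PD-1 minus IgG (x axis), for the 7 tested members and Csf2rb2, with 95% intervals from limma (black) and the values without 1 tumor each (red ticks). The interval of Il34 (0.90 to 2.43) lies above 0, and the intervals of the other genes include 0.

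Csf1 and its receptor gene had a Pearson r of 0.810 over the 6 tumors (permutation p 0.0514) and a Spearman rho of 0.771 (permutation p 0.103), and r was 0.647 without the 2 tumors farthest from the median. Il34 and Csf1r had an r of 0.153 (permutation p 0.758), a rho of 0.200 and an r of -0.11 without 2 tumors. Il34 had an r of 0.519 with the mean of 11 fibroblast markers (permutation p 0.286), a rho of 0.486 and an r of 0.793 without 2 tumors. With 12 epithelial markers its r was -0.341 (permutation p 0.581), its rho 0.143 and its r without 2 tumors -0.392. None of these relations passed the adjustment.

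The genes whose profiles over the 6 tumors lay nearest to Il34, by root mean square difference of centred log2(FPKM + 1), were Dsg3, a desmoglein of stratified epithelium (0.154), the transcription factor gene Foxa3 (0.181) and Mycn (0.198), where the spread of Il34 itself was 0.921. Their log2 differences were 1.43, 1.87 and 1.34. The nearest to Csf1r was Trem2, the gene of a receptor of macrophages and microglia (0.096, against a spread of 0.342 for Csf1r), followed by Kansl2 (0.099) and Fam210b (0.107). Zfp330 (0.054), Rhoq (0.061) and Efr3a (0.082) were nearest to Csf1. For Csf3 they were Tagln2 (0.186), Gsta4 (0.223) and Snorc (0.236), for Csf2ra Zfp180 (0.037), Polr2g (0.047) and Cct8 (0.049), for Csf2rb Camsap3 (0.095), Mapk8ip1 (0.105) and Tesk2 (0.117), and for Csf3r Tsr2 (0.050), Uso1 (0.051) and Pgghg (0.059). These are the closest of 12409 protein-coding genes over 6 tumors, and closeness of this kind is a description.

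Downstream of the receptors, the transducers were followed as a list. Of 23 genes for kinases, STATs and adaptors of CSF receptor signaling, 2 were higher and 4 lower at an unadjusted p under 0.05, where 6.22% and 6.05% of all tested genes were, and the median log2 difference was -0.05. Leaving out each tumor in turn gave 0 to 2 higher, with 0 when IgG replicate 3 or anti-PD-1 replicate 1 was left out, and 2 to 4 lower, with Jak1 and Stat5a among them each time and only these when IgG replicate 2 or anti-PD-1 replicate 2 was. Jak1, a kinase of the IL-6 and interferon receptor families that also serves G-CSF signaling, was at 28.7, 46.9 and 43.4 FPKM after IgG and at 21.1, 18.8 and 20.8 FPKM after anti-PD-1 (log2 difference -0.91, limma adjusted p 0.344). Its groups did not overlap, and it lies on chromosome 4, where the median log2 difference was -0.40.

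Stat5a, a transcription factor of GM-CSF and prolactin signaling, was at 10.1, 18.5 and 18.9 FPKM after IgG and at 9.08, 5.11 and 7.92 FPKM after anti-PD-1, without overlap (log2 difference -0.99, limma adjusted p 0.346). The others at this p were Stat5b (-0.68), a close relative, and Tyk2 (-0.60) among those lower, and the adaptor genes Shc1 (0.46) and Fcer1g (0.66) among those higher, all without overlap. Tyk2 lies on chromosome 9, where the median log2 difference was -0.36 and 82.3% of 798 genes were lower. Jak2, the kinase on which the GM-CSF receptor relies, differed by -0.06 and Stat3, a transducer of G-CSF, by -0.08, both with limma adjusted p-values over 0.5.

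Of 12 negative regulators, 1 was higher and 1 lower at an unadjusted p under 0.05, against 6.22% and 6.05% of all tested genes. Leaving out each tumor in turn gave 1 to 2 higher, Dok1 among them each time, and 0 to 2 lower. Dok1, an adaptor that dampens tyrosine kinase signaling, was at 27.4, 21.8 and 18.1 FPKM after IgG and at 41.1, 43.1 and 38.6 FPKM after anti-PD-1, without overlap (log2 difference 0.86, limma adjusted p 0.344). Cbl, the ubiquitin ligase that directs activated CSF-1 receptor to degradation, differed by -0.53 (limma adjusted p 0.397), with overlap, and it too lies on chromosome 9. Its unadjusted p was under 0.05 without IgG replicate 1 and over 0.05 without any other tumor. The list median was -0.03.

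Of 12 tested myeloid transcription factors in a list of 15, Egr2 and Nr4a1 were higher and Runx1 and Cebpa lower at an unadjusted p under 0.05, and the median log2 difference was 0.10. Of all tested genes 6.22% were higher and 6.05% lower at this p. Leaving out single tumors gave 1 to 3 higher and 0 to 2 lower, with 0 lower when IgG replicate 2 or anti-PD-1 replicate 2 was left out and only Egr2 higher when anti-PD-1 replicate 1 or 3 was. Egr2, an early response gene of CSF-1 signaling in macrophages, was at 1.99, 0.670 and 0.979 FPKM after IgG and at 3.68, 2.31 and 3.36 FPKM after anti-PD-1 (log2 difference 0.93, limma adjusted p 0.344). Runx1 differed by -0.83, Cebpa by -0.67 and Nr4a1 by 1.07, each without overlap. Spi1, the gene of PU.1, which controls Csf1r, was at 2.73, 4.17 and 2.24 FPKM after IgG and at 5.74, 3.30 and 5.47 FPKM after anti-PD-1, with overlap (log2 difference 0.53, limma adjusted p 0.444). Its unadjusted p came under 0.05 when IgG replicate 2 or anti-PD-1 replicate 2 was left out.

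Among other hematopoietic factors and receptors, 3 of 8 were abundant enough to test. Kit, the receptor of stem cell factor and a relative of Csf1r, was at 59.4, 105 and 101 FPKM after IgG and at 55.3, 41.4 and 45.4 FPKM after anti-PD-1, without overlap (log2 difference -0.85, limma adjusted p 0.346). Flt3l, a growth factor of dendritic cells, differed by -0.46 with overlap, and Epo was at 0 in all tumors. Of the 5 IL-3 and IL-5 relatives, Il3 was at 0 in all tumors and Il3ra differed by 0.12.

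Besides Csf1r, IL-34 is known to bind syndecan-1 (Sdc1), the phosphatase encoded by Ptprz1 and TREM2. Sdc1 was at 31.4, 29.3 and 18 FPKM after IgG and at 57.8, 21.2 and 42.9 FPKM after anti-PD-1, with overlap (log2 difference 0.54, limma adjusted p 0.594), and its unadjusted p came under 0.05 without anti-PD-1 replicate 2. Trem2 differed by 0.09, and Ptprz1 was too low to test. Of 10 cytokine genes whose products induce colony-stimulating factors, 5 were tested and Lif was higher at an unadjusted p under 0.05 (log2 difference 0.95, limma adjusted p 0.355, with overlap), where 6.22% of all tested genes were. Lif lost that call when IgG replicate 3, anti-PD-1 replicate 2 or anti-PD-1 replicate 3 was left out. Il33 differed by 0.45, and Il17a and Il17f were at 0 in all tumors.

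Among the markers of cells that carry these receptors, 1 of 16 macrophage genes was higher at an unadjusted p under 0.05 and none was lower, against 6.22% and 6.05% of all tested genes, with a median log2 difference of 0.30. Cd68, the gene of a lysosomal protein of macrophages, was at 18.1, 15.1 and 13.7 FPKM after IgG and at 22.1, 30.5 and 29.1 FPKM after anti-PD-1 (log2 difference 0.76, limma adjusted p 0.344). Adgre1 was at 7.0, 8.74 and 5.89 FPKM after IgG and at 7.43, 5.25 and 9.31 FPKM after anti-PD-1, and its log2 difference was 0.01. Apoe and Lyz2, the most abundant of the list, differed by 0.47 and 0.31, both with overlap. Without single tumors, 1 to 4 macrophage genes were higher, the 4 without anti-PD-1 replicate 2, and none lower. The summed FPKM of the list was 919 to 1683 in IgG-treated and 1158 to 1953 in anti-PD-1-treated tumors. No tested gene among the monocyte (4 tested), dendritic cell (4), mast cell and eosinophil (4), endothelial (8), adipocyte (1) or skeletal muscle (6) markers had an unadjusted p under 0.05, with list medians of 0.45, -0.01, 0.02, -0.25, -0.32 and 0.72. The log2 differences of the genes with the smallest p or the highest level in these lists were 0.68 for Fn1 and 0.71 for Vcan (monocyte), -0.49 for Siglech, 0.27 for Itgax and -0.27 for Batf3 (dendritic cell), -0.72 for Mcpt4 and 0.35 for Tpsb2 (mast cell). In the same way they were -0.36 for Tie1, -0.29 for Erg, -0.54 for Cdh5 and -0.21 for Pecam1 (endothelial), -0.32 for Fabp4 (adipocyte), and 0.63 for Actn3, 1.28 for Acta1 and 1.1 for Tnnt3 (skeletal muscle). Adipoq was too low to test. All these genes overlapped between treatments. Leaving out 1 tumor brought the unadjusted p under 0.05 for Vcan and Siglech (IgG replicate 1), Fn1 (anti-PD-1 replicate 2), and Mcpt4 and Tie1 (anti-PD-1 replicate 1).

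Epithelial cells and fibroblasts were followed by their markers. Of 12 epithelial markers, Krt7 was higher (log2 difference 1.07) and Krt17 (-0.66) and Krt19 (-2.03) were lower at an unadjusted p under 0.05, and the list median was close to 0. Of all tested genes 6.22% were higher and 6.05% lower. Without single tumors, 0 to 1 was higher and 0 to 3 lower, with Krt7 lost when anti-PD-1 replicate 1 or 2 was left out and no lower gene left when anti-PD-1 replicate 3 was. Epcam was at 878, 854 and 683 FPKM after IgG and at 986, 1142 and 1115 FPKM after anti-PD-1, without overlap and in the same direction as Il34 (log2 difference 0.43, limma adjusted p 0.462). The log2 differences of the 12 markers were above 0 for 6 and below 0 for 6, so the list did not move with Epcam. Krt18 differed by 0.34, with overlap. None of the 12 was at 0, and their summed level was 1956 to 2720 FPKM in IgG-treated and 2594 to 3699 FPKM in anti-PD-1-treated tumors, with overlap. None of 11 fibroblast markers had an unadjusted p under 0.05. Their log2 differences were above 0 for 7 and below 0 for 4, with a median of 0.11. The largest were 0.76 for Col1a1, 0.70 for Col1a2 and 0.77 for Col3a1. Col3a1 came under that p without anti-PD-1 replicate 2, on the higher side, and Lum without anti-PD-1 replicate 1, on the lower side. Their summed level was 108 to 301 FPKM after IgG and 114 to 401 FPKM after anti-PD-1. The part of either cell type in the Il34 difference was not tested.

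**Figure D5:**
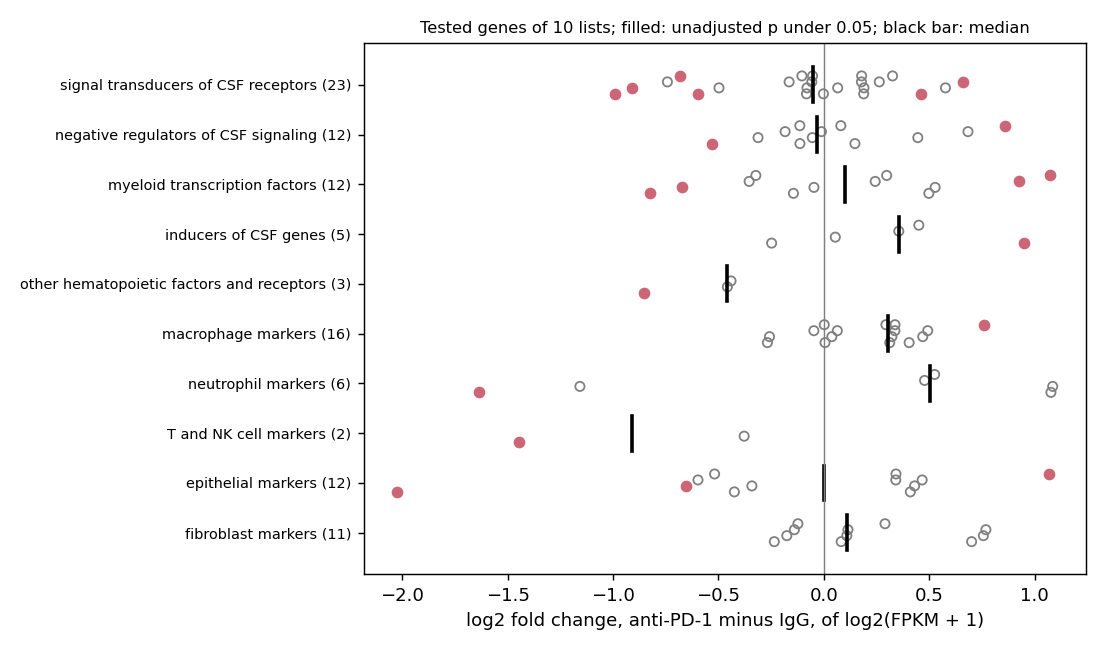
Log2 difference, anti-PD-1 minus IgG, of each tested gene (circles, filled where the unadjusted p is under 0.05) of 5 pathway and 5 marker lists, with black bars for list medians and the number of tested genes in parentheses. The medians of the transducer, negative regulator and macrophage lists are -0.05, -0.03 and 0.30, and filled circles lie on both sides of 0.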

How the data were processed

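RNAseq values of 6 mammary tumors, 3 per treatment (IgG or anti-PD-1) of NeuT/ATTAC mice, were used, with groups and replicate numbers from the sample labels. By the study's methods and the submitters' processing notes, the authors trimmed reads with cutadapt 3.5 and aligned and counted them on mm10 with RSEM 1.3.1 and Bowtie2 2.4.1. The authors deposited FPKM per Ensembl gene ID, and how the FPKM was made is not given in the sources used here. The study describes tumor RNA as pooled within each group, while the deposited values differ between 3 samples per group, and whether each sample is 1 tumor is not known. Of 54532 IDs, 54495 matched GENCODE release M21 (Ensembl release 96, GRCm38), which gave symbols and merged exon lengths. FPKM times exon length gave whole reads, within 0.1, for 97.0% to 97.3% of values above 0 per tumor. They did not for Csf1r and Csf2ra, for which no reads are given.

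Comparisons used log2 of 1 plus the FPKM after division by median-of-ratios factors, so that differences of low genes are understated. The 15069 genes with a mean of at least 0.5 FPKM entered limma 3.58.1, run in R 4.3.3 (eBayes with trend, two-sided, Benjamini-Hochberg adjustment over all of them). Levels relative to markers were compared with exact permutation tests, and correlations with exact permutations of the pairings, adjusted over 15 relations. Intervals and the limit of 3 reads for a count of 0 cover counting error, or the spread between these tumors, only. Python 3.11.15 with pandas 2.3.3, scipy 1.17.1 and matplotlib 3.10.9 served for the rest.

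The members and lists were chosen with earlier results of these data known. Genes named are the members, Csf2rb2, genes overlapping a member, the 2 of each list with the smallest p, the 2 marker genes with the highest mean, the 3 genes nearest in profile to each member, Erbb2 and Pdcd1. Other genes of a list were named after their values were seen. Alternatives were 0.1 added to the FPKM, no filter, a mean of at least 2 FPKM, FPKM as deposited, quantile normalization, the replicate number as a block, limma's voom on recovered reads, and dropping single tumors. List counts without single tumors were added after seeing the data.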

Additional observations from a re-analysis of the deposited data

How the results depend on the processing

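Il34 was higher after anti-PD-1 at an unadjusted limma p under 0.05 in all 13 alternatives. Without single tumors, the log2 differences ran from -0.14 to 0.38 for Csf1r, from -0.45 to 0.06 for Csf2rb and from 0.08 to 1.02 for Csf3. The sign of Csf1r turned without IgG replicate 1 (-0.03) and when anti-PD-1 replicate 3 was dropped (-0.14), that of Csf2rb without IgG replicate 3 (0.062), and the cause was not tested. Csf3 passed an unadjusted p of 0.05 without anti-PD-1 replicate 3, so that 1 to 2 members did so without single tumors. Over all genes, 1848 had an unadjusted p under 0.05 (957 to 2687 without single tumors), 2720 did not overlap between groups (3454 to 5360, where fewer tumors make overlap rarer), and 0 had an adjusted p under 0.05 (0 to 12, the 12 without IgG replicate 1). With voom on recovered reads 1 gene had an adjusted p under 0.05.

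Tumors with the same replicate number did not deviate together (correlations of -0.16, 0.01 and 0.19), so the numbers were not taken as pairs. With the replicate number as a block, 1725 genes had an unadjusted p under 0.05, and the Il34 log2 difference of 1.66 had an unadjusted p of 0.00108. Among the members the block changed no call at that threshold.

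Under quantile normalization the neutrophil markers beside Csf3r were the 6 tested ones (difference 0.14). Depth limited Csf2, with 14 reads in all.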

Other observations

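Gzmb, the gene of a cytotoxic granule protease, was at 1.57, 4.84 and 2.29 FPKM in IgG-treated and at 0.597, 0 and 0.525 FPKM in anti-PD-1-treated tumors, without overlap (log2 difference -1.45, limma adjusted p 0.344). The 14 T and NK cell markers it belongs to summed to between 3.47 and 12.8 FPKM after IgG and between 2.95 and 3.30 FPKM after anti-PD-1, and 12 of them were too low to test. Gzma, another protease of the list, was at 0.0448, 2.14 and 0.363 FPKM after IgG and at 0.232, 0.652 and 0 FPKM after anti-PD-1, with overlap (log2 difference -0.38, limma adjusted p 0.749). Klrb1c, Prf1, Cd8b1, Foxp3 and Pdcd1 had higher means after anti-PD-1 and the other markers lower means, so the list did not move one way.

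G0s2, listed as a neutrophil marker and known as an inhibitor of fat breakdown in adipose and other cells, was at 82.5, 156 and 118 FPKM after IgG and at 51.7, 17.9 and 51.5 FPKM after anti-PD-1, without overlap (log2 difference -1.63, limma adjusted p 0.344). Mmp9, a matrix protease of neutrophils and macrophages, was below the limit for testing, at 0.161 to 0.280 FPKM after IgG and 0.463 to 0.694 FPKM after anti-PD-1. Mmp9 and the T and NK cell markers other than Gzmb and Gzma were chosen after the values were seen.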
